A study of Mus musculus and Rattus norvegicus with 53 samples.

Results

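The genes described here are 35 interferon-stimulated genes, and they were followed in Schwann cells (SCs) of the mouse sciatic nerve before and after the nerve was cut. They were taken by symbol from the count files (Ifit1, Ifit2, Ifit3, Isg15, Irf1, Irf7, Irf9, Stat2, Oas1a, Oas2, Oas3, Oasl1, Oasl2, Rsad2, Usp18, Ifih1, Ddx58, Dhx58, Ifi35, Ifi44, Ifitm1, Ifitm2, Ifitm3, Bst2, Mx1, Mx2, Gbp2, Gbp3, Igtp, Irgm1, Trim25, Parp14, Xaf1, Rtp4 and Eif2ak2), and all 35 were found among 24016 genes. All 35 passed the filter on low counts in both experiments.

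Type I interferons signal through the receptor chains Ifnar1 and Ifnar2 and the kinases Jak1 and Tyk2 to a complex that holds Stat2 and Irf9 and binds the interferon-stimulated response element (ISRE). Interferon gamma signals through its own receptor to the gamma-activated sequence (GAS). The genes switched on by these routes encode RNA sensors, inhibitors of translation, proteins that keep viruses out of membranes and GTPases that act on the vacuoles of intracellular microbes, and many cells keep some of them expressed at a low level in the absence of infection.

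The SCs came from tdTomato reporter mice in which a Cre transgene active in the neural crest lineage recombined a Rosa26 reporter. Mice of both sexes, 6 to 8 weeks old, had 1 sciatic nerve fully transected and the contralateral nerve left intact, and tdTomato-positive cells were sorted from the intact nerve (iSCs), from the stump distal to the cut (dSCs) and from the new tissue bridging the gap (bSCs). All animals carried the reporter and no other engineered allele is given for these libraries. In the pooled experiment, nerves of 3 mice went into each library and dSCs and bSCs were collected 6 days after transection, giving 4 libraries each of iSCs, dSCs and bSCs. In the single-nerve experiment, 5 iSC libraries were set beside 3 dSC libraries per time point (days 1 and 2 and every second day from 4 to 10) and 3 bSC libraries per time point (every second day from 4 to 10).

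Depth ranged from 11435463 to 22617054 gene counts per library in the pooled experiment (median 13527755) and from 9240883 to 22426128 in the single-nerve experiment (median 13149913). The summed level of 10 Schwann cell markers was 27100-68190 counts per 1000000 gene counts of the library (CPM) in pooled iSCs, 1999-6890 in dSCs and 2111-5627 in bSCs. The library sizes behind CPM were the TMM-scaled sizes of the edgeR fits, so CPM differs from the plain ratio to the gene counts. Macrophage markers were present in every library in spite of the sort, with a sum of 268-6772 CPM in pooled iSCs, 11160-18630 in dSCs and 2800-9087 in bSCs, and T and NK cell markers summed to 0-10.9 CPM in the pooled libraries. Macrophages also express interferon-stimulated genes, and the part of these cells in the values below was not tested. In sorted bulk RNA, fewer cells of a type and less RNA per cell cannot be told apart.

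One pair of libraries was nearly identical. The bSC and dSC libraries numbered replicate 1 at day 4 of the single-nerve experiment, which the labels give to the same animal, had a chi-square per degree of freedom of 3.90 over their counts, whereas the next lowest of the 595 pairs of single-nerve libraries stood at 46.2 and 9 further pairs, those whose labels agree on 1 animal, at 115 or above. Between sequencing lanes of 1 library the highest value was 1.30. Of 7528 genes with a mean over 200 counts in the pair, 0 differed by more than 2-fold. The day 4 medians of the interferon-stimulated genes are therefore given with and without this pair. The day 4 numbers of genes at an unadjusted p under 0.05 or called by DESeq2 are given only with both libraries in. The same holds for the day 4 values of single genes, so these results were not checked without the pair.

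The sequence before the transcription start is given for some of the genes the comparisons turn on, because ISRE and GAS are the elements that the pathway is known to act through. RefSeq promoters of the GRCm38.p6 build (300 bases, 250 before the start and 50 after it) were held for 28 of the 35 genes. The ISRE letters (GAAA, any 2 bases and GAAA) were found on either strand in 17 of the 28 (60.7%), against 3.99% of all 27025 genes in the table, and the GAS letters (TTC, any 3 bases and GAA) in 8 (28.6%), against 9.55%. Both were found in 5 genes and neither in 8, and matches to the 2 motifs or to 1 motif may overlap. Windows are printed for some of the genes that carry the comparisons and for the well-known targets Isg15 and Rsad2. Oas2, which was called below, was among the 7 genes with no promoter held, so no window is printed for it. They run 5′ to 3′ on the strand of the gene, with the matching letters in capitals. Where the capitals begin with TTT the ISRE letters lie on the opposite strand.
Ifit3, ISRE letters, chr19:34583361-34583394, gene on the plus strand: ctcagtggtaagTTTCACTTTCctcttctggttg
Ifit3, ISRE letters, chr19:34583395-34583428, gene on the plus strand: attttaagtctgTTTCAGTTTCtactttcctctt
Isg15, ISRE letters, chr4:156200869-156200902, gene on the minus strand: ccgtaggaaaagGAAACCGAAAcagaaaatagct
Igtp, ISRE letters, chr11:58199510-58199543, gene on the plus strand: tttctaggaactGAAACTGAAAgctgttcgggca
Irgm1, ISRE letters, chr11:48871423-48871456, gene on the minus strand: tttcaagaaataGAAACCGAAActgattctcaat
Stat2, ISRE letters, chr10:128270264-128270297, gene on the plus strand: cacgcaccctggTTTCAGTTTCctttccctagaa
Rsad2, ISRE letters, chr12:26456551-26456584, gene on the minus strand: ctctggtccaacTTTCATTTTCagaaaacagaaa
Irf1, GAS letters, chr11:53769912-53769944, gene on the plus strand: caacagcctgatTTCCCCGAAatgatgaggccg
Ifit2, GAS letters, chr19:34550444-34550473, gene on the plus strand: catgggagcTTCCTGGAAgaatggataaaa
Igtp, GAS letters, chr11:58199499-58199531, gene on the plus strand: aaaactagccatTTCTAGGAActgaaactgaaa
Ifit3 carried 2 separate matches to the ISRE letters, Igtp carried GAS and ISRE matches close together before its start, and Irf1 and Ifit2 carried the GAS letters and no ISRE letters within this window. A match is a description of the letters and not a binding site. The counts were made on another build (mm9), so no coordinate was joined to them.

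Levels between genes were compared as CPM per kilobase of exon (kb, exon lengths from an mm9 annotation). In both experiments the most abundant were Ifitm3 and Ifitm2, proteins that hinder the fusion of enveloped viruses with endosomal membranes, with medians over the pooled libraries of 786 and 527 CPM per kb and over the single-nerve libraries of 709 and 510. Bst2 (tetherin, which holds budding virions at the cell surface) followed at 76.8 (pooled) and 79.3 (single-nerve) CPM per kb and Rtp4 at 33.8 and 38.8. At the other end lay Mx1, a dynamin-like antiviral GTPase, at 0.0509 and 0 CPM per kb, Oas3 at 0.0779 and 0.195, and Oas2 at 0.183 and 1.08. Reads of near-identical copies, such as Ifit3 and Ifit3b, Oas1a and its tandem copies, or the Ifitm and Gbp families, may be split between genes in the counting, and these values are uncertain to that extent. Irf9 overlaps another gene on the same strand, and Irf1, Irf7, Oasl1, Dhx58, Ifi35 and Eif2ak2 overlap a gene on the other strand, from which their reads cannot be told apart in these libraries.

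**Figure D1:**
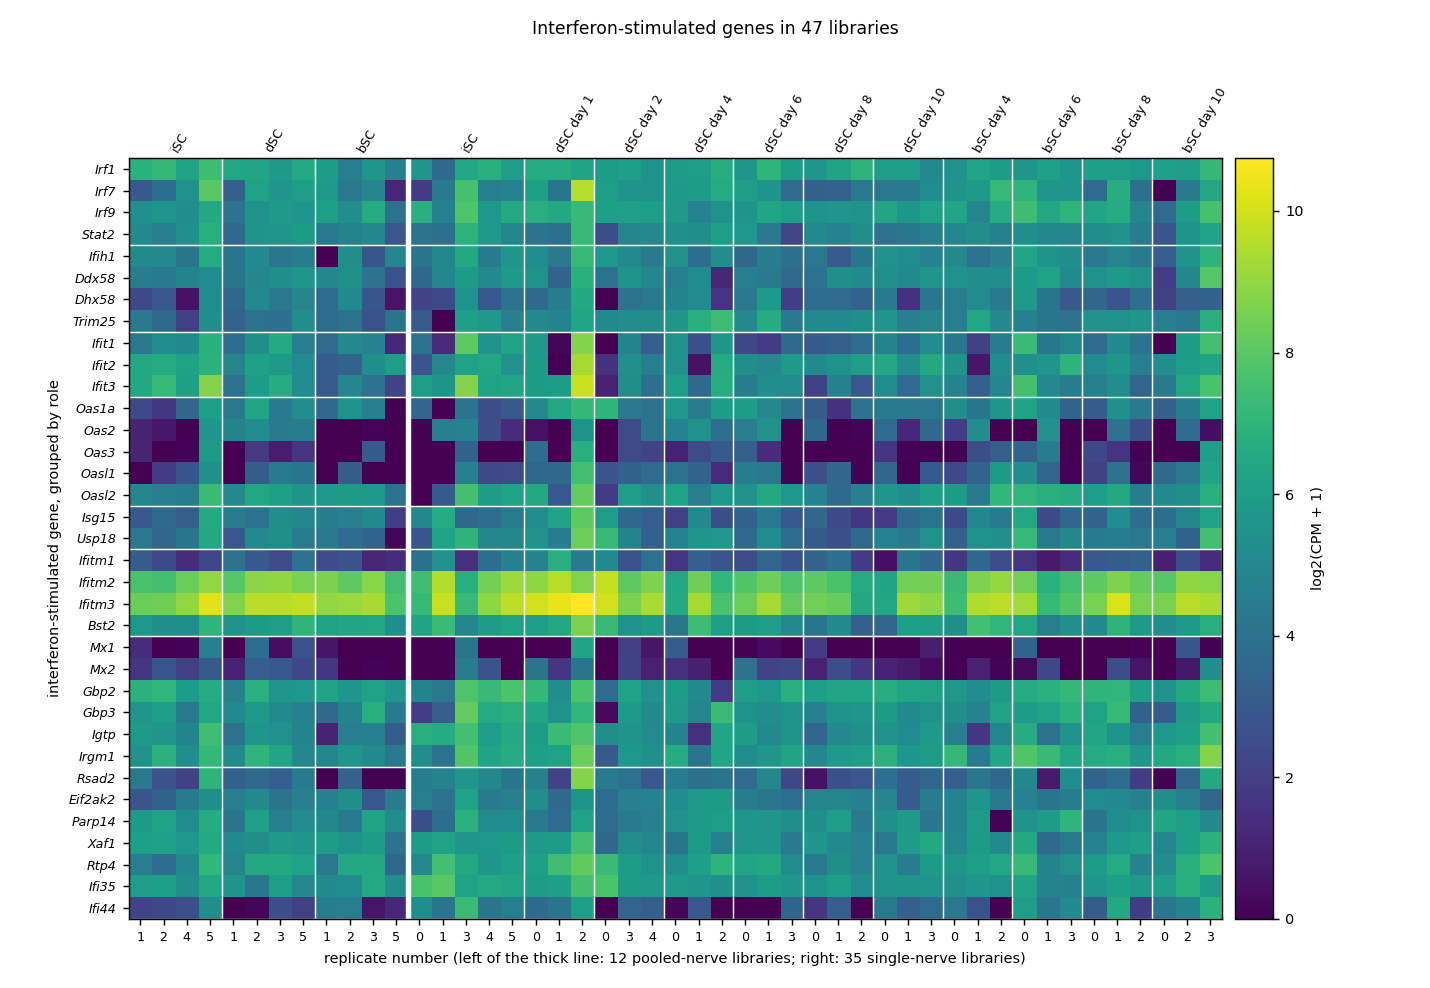
Heatmap of log2(CPM + 1) for the 35 interferon-stimulated genes (vertical axis, grouped by role) in the 47 libraries (horizontal axis, grouped by cell source and day). Ifitm3 and Ifitm2 form the brightest lines throughout, and single libraries such as pooled iSC replicate 5 and single-nerve dSC day 1 replicate 2 stand out across many genes.

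Single libraries differed widely within their groups. Pooled iSC replicate 5 had a median log2(CPM + 1) over the 35 genes of 6.56, against 4.60-4.84 in the other 3 iSC libraries, and it was the highest of the 12 pooled libraries for 25 of the 35 (71.4%), against 8.97% of all genes. Its macrophage marker sum was 6772 CPM, against 268-1605 CPM in the other iSC libraries, and its fibroblast marker sum of 29320 CPM was the highest of the 12. Pooled bSC replicate 5 was the lowest, at 3.17.

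In the single-nerve experiment, dSC day 1 replicate 2 had a median of 7.48 and was the highest of 35 libraries for 21 of the 35 genes (60%), against 1.69% of all genes. It held 938 CPM of Ifit3, where the other day 1 libraries held 56.6 and 60.8, and 744 CPM of Irf7, where they held 66.4 and 17.3. Its macrophage marker sum was 6792 CPM against 3955 and 5037. Next in order were bSC day 10 replicate 3 at 6.79, iSC replicate 3 at 6.43 and bSC day 6 replicate 0 at 6.19. Of the 5 iSC libraries, replicate 3 had the lowest macrophage marker sum (324 of 324-1470 CPM), and its endothelial marker sum of 3406 CPM was the highest of the 35 single-nerve libraries. The macrophage marker sum of bSC day 10 replicate 3 was 11320 CPM, against 1800 and 6333 in the other day 10 bSC libraries. The part of these cells in the libraries that stand apart was not tested. Most medians of the 35 genes against iSCs are given with and without one of these libraries. Medians by role and most values of single genes are given with all libraries only.

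**Figure D2:**
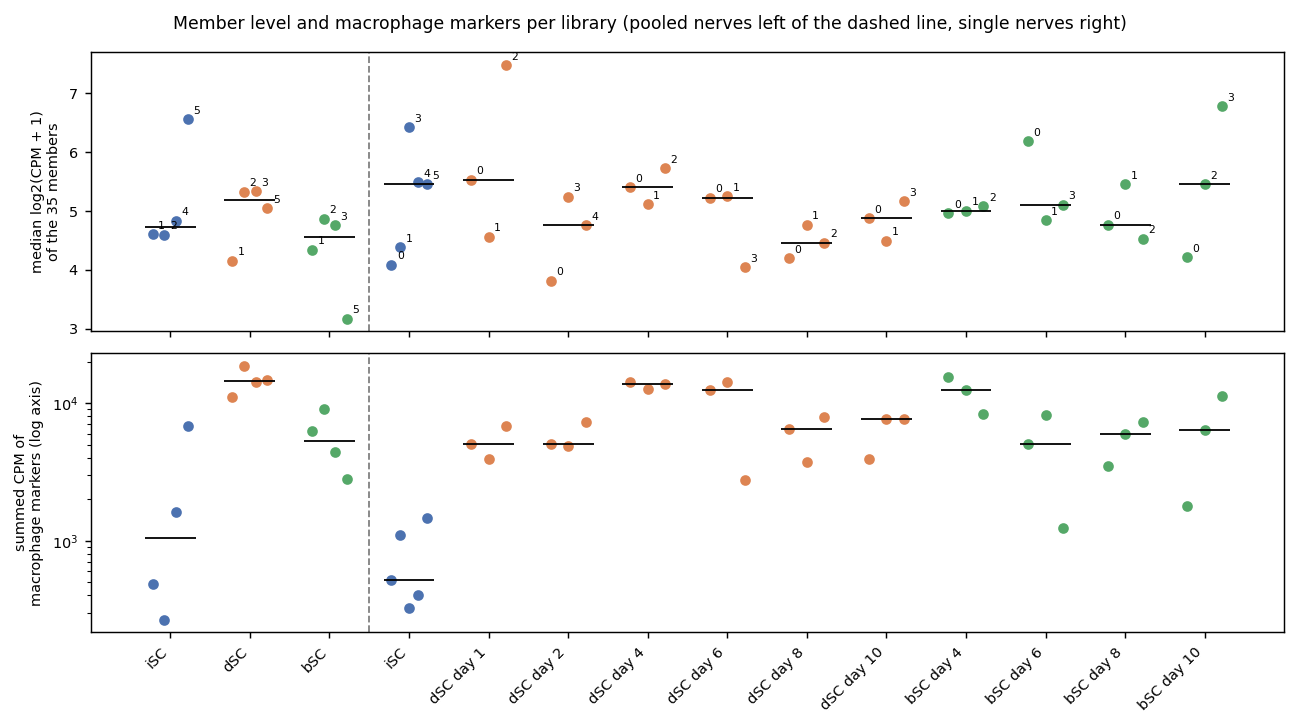
Upper panels, median log2(CPM + 1) of the 35 genes in each library, with the replicate number beside the point and a line at the group median; lower panels, summed CPM of macrophage markers in the same libraries (log axis). Pooled iSC replicate 5 (6.56) and single-nerve dSC day 1 replicate 2 (7.48) lie above the rest of their groups.

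The first comparison asked how the genes differed between the intact nerve and the distal stump 6 days after transection. In pooled dSCs against iSCs, 0 of the 35 genes passed edgeR's quasi-likelihood test (Benjamini-Hochberg adjusted p under 0.05), with 1 at an unadjusted p under 0.05 (16.5% of all genes) and 0 called by DESeq2 (10.1% of all genes), while 5.32% of all 13751 genes tested were called (2.63% higher and 2.69% lower). The median log2 fold change of the 35 genes was -0.35, against -0.02 over all genes, and 23 of 35 lay below 0. This median turned on iSC replicate 5: without it, it was 0.59, 12 of 35 lay below 0, and Oas2 was called higher (log2 fold change 5.64, edgeR adjusted p = 0.0414).

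By role, all 4 transcription factors and all 3 Ifit genes had a fold change below 0, with medians of -0.54 and -0.98, and all 4 genes of membrane restriction (Bst2, Ifitm1, Ifitm2 and Ifitm3) one above 0, with a median of 0.33. None of these passed the test, and these medians by role are given only with iSC replicate 5 included. Ifitm3 stood at 320, 338, 509 and 1220 CPM in iSCs and at 415, 803, 803 and 866 CPM in dSCs. The dSC values lay within the range of the iSC values (log2 fold change 0.27 ± 0.45 SE, edgeR adjusted p = 0.882).

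The second comparison set bSCs against iSCs. Of the 35 genes, 3 were called lower (8.57%) and 0 higher, with 7 (20%) at an unadjusted p under 0.05, beside 28.6% of all genes. DESeq2 called 5, beside 22.6% of all genes. Among edgeR's tests of all genes 14.7% were called, 7.24% higher and 7.46% lower, so the share of the interferon-stimulated genes called lower was close to that of all genes. The median log2 fold change was -0.67, against -0.16 over all genes, and 29 of 35 lay below 0. Without iSC replicate 5 the median was -0.39, 20 of 35 lay below 0, and Ifit3 and Irf1 were called.

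Ifit3, an interferon-induced protein with tetratricopeptide repeats that assists Ifit1 in binding foreign RNA, was at 91.4, 145, 67.6 and 418 CPM in iSCs, at 14.9, 58.4, 98.7 and 35.1 CPM in dSCs and at 7.76, 30.4, 15.9 and 3.64 CPM in bSCs. Every bSC library lay below every iSC library, and dSCs overlapped both. Ifit3 fell in bSCs against iSCs (log2 fold change -3.65 ± 0.79 SE, edgeR adjusted p = 0.00795). It stayed called without iSC replicate 5, at -2.78 with an adjusted p of 0.0231, and under every alternative run. Between bSCs and dSCs the value was -1.85 ± 0.74 (edgeR adjusted p = 0.158), and between dSCs and iSCs it was -1.80 ± 0.73 (edgeR adjusted p = 0.218).

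Irf1, a transcription factor induced by interferon gamma and by NF-kB that binds ISRE-like sequences, was at 114, 143, 77.4 and 168 CPM in iSCs, at 84.2, 81.2, 54.1 and 95.3 CPM in dSCs and at 60.01, 23.0, 50.8 and 25.7 CPM in bSCs. The bSC values all lay below the iSC values, and dSCs lay between, with overlap on both sides. Irf1 fell in bSCs against iSCs (log2 fold change -1.66 ± 0.36 SE, edgeR adjusted p = 0.00858) and kept its call under every alternative run. Its values were -0.68 ± 0.36 in dSCs against iSCs (edgeR adjusted p = 0.395) and -0.98 ± 0.36 in bSCs against dSCs (edgeR adjusted p = 0.123).

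Oas2 belongs to the 2′-5′-oligoadenylate synthetases, which on binding double-stranded RNA make the activator of the ribonuclease RNase L. Its raw counts were 13, 12, 0 and 584 in iSCs and 0, 0, 1 and 0 in bSCs, whereas dSCs held 27.7, 36.6, 20.5 and 22.7 CPM. Most of the iSC counts thus came from replicate 5, and iSCs and bSCs overlapped. Oas2 was called lower in bSCs against iSCs (edgeR adjusted p = 0.0150), a call lost without iSC replicate 5 (adjusted p = 0.0557) and with the pool number as a block (adjusted p = 0.0622). Counts per depth, summed over the libraries of a group, were 741 times as high in iSCs as in bSCs (95% exact interval 132-29300, for 609 counts against 1). The interval holds counting error only and no spread between pools. With 584 of the 609 counts from replicate 5, the ratio is mainly that of 1 pool. The fitted fold change depends on the prior count and is not given as a size.

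In Ifit2 and Igtp every bSC library lay below every iSC library, and neither passed the test. Both were named for their small p over the pooled comparisons, so this separation is no further support. The share of all genes that separate in this way is not given for any comparison in this text. Ifit2, which acts with Ifit3, was at 87.5, 98.1, 72.6 and 119 CPM in iSCs and at 7.40, 10.0, 40.0 and 64.8 CPM in bSCs (log2 fold change -1.62 ± 0.59 SE, edgeR adjusted p = 0.0808, DESeq2 adjusted p = 0.0262). Igtp (Irgm3), an immunity-related GTPase that acts at the vacuoles of intracellular parasites, was at 53.5, 48.0, 27.6 and 174 CPM in iSCs and at 1.08, 23.1, 25.7 and 8.02 CPM in bSCs (log2 fold change -2.39 ± 0.82 SE, edgeR adjusted p = 0.0663, DESeq2 adjusted p = 0.0120). With the pool number as a block, Igtp was called (edgeR adjusted p = 0.0433). Irgm1, another immunity-related GTPase, overlapped between iSCs (43.6, 120, 37.6 and 143 CPM) and bSCs (29.2, 48.4, 34.5 and 19.5 CPM), with a log2 fold change of -1.39 ± 0.55 (edgeR adjusted p = 0.109).

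**Figure D3:**
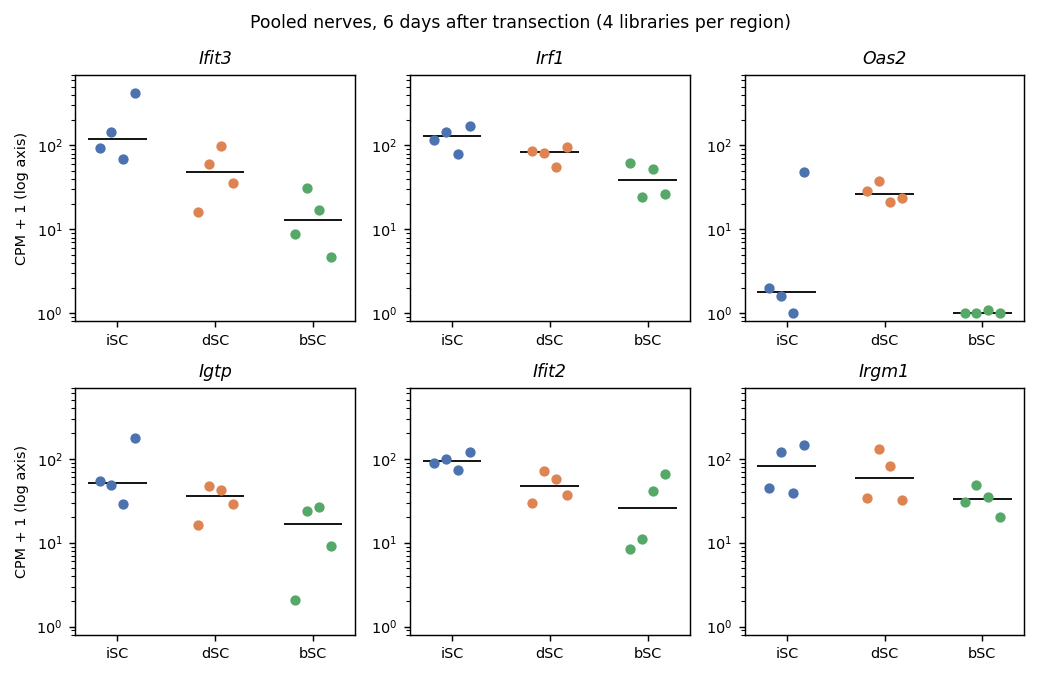
CPM + 1 (log axis) of Ifit3, Irf1, Oas2, Igtp, Ifit2 and Irgm1 in each pooled library of iSCs, dSCs and bSCs, with a line at the group median. For Ifit3, Irf1, Igtp and Ifit2 all 4 bSC points lie below all 4 iSC points, and Oas2 is at or near 0 in bSCs and in 3 of the 4 iSC libraries. The genes shown were chosen by their calls or their small pooled p.

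The remaining transcription factors were not called. Irf7, the factor that amplifies type I interferon production, ranged over 7.10, 13.9, 45.5 and 251 CPM in iSCs and over 54.0, 19.3, 30.9 and 1.21 CPM in bSCs (log2 fold change -1.59 ± 1.10 SE, edgeR adjusted p = 0.389). Stat2 was at 34.2, 23.6, 40.9 and 109 CPM in iSCs and at 19.3, 27.9, 31.6 and 6.58 CPM in bSCs (-1.28 ± 0.62, edgeR adjusted p = 0.198). Irf9, its DNA-binding partner, was at 41.6, 48.2, 37.5 and 87.4 CPM in iSCs and at 68.1, 38.4, 100 and 15.1 CPM in bSCs (0.05 ± 0.53, edgeR adjusted p = 0.968). The groups overlapped for all 3 genes.

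Across the roles, medians of the log2 fold change in bSCs against iSCs were -1.44 for the 4 transcription factors, -1.62 for the 3 Ifit genes, -2.59 for the 5 oligoadenylate synthetase genes and -1.89 for the 6 GTPases. They were closer to 0 for the 4 genes of RNA sensing (Ifih1, Ddx58, Dhx58 and Trim25, a ubiquitin ligase that activates RIG-I, median -0.36), the 4 membrane restriction genes (-0.11) and the 7 other effectors (-0.34). The pair of the ISG15 system, the ubiquitin-like modifier Isg15 and its deconjugating protease Usp18, had a median of -1.08, and neither was called (edgeR adjusted p = 0.758 and 0.348). All of these medians by role include iSC replicate 5, and none is given without it. Ifitm2 and Ifitm3 had log2 fold changes of 0.10 ± 0.37 and -0.31 ± 0.45 (edgeR adjusted p = 0.907 and 0.728). Macrophage markers had a fold change above 0 in the same comparison for 14 of 15 genes tested, with a median of 1.22. Fibroblast markers were below 0 for 7 of 7, with a median of -2.22 and 3 called lower. Their summed level was 1625-5626 CPM in bSCs and 6608-29320 CPM in iSCs. Schwann cell markers were below 0 for 9 of 10, with a median of -2.325, 8 called lower and 1 called higher. Endothelial markers were above 0 for 5 of 7, with 0 called. The part of these cells in the result was not tested.

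Other members, outside the naming rule, were picked after their values were seen. Rsad2 (viperin), a radical-SAM enzyme that blocks the synthesis of viral RNA, was at 19.3, 5.80, 3.26 and 128 CPM in iSCs and at 0, 9.29, 0 and 0 CPM in bSCs, with dSCs at 9.10, 11.97, 8.27 and 21.5 CPM. The bSC and iSC ranges overlapped, and Rsad2 did not pass the test (edgeR adjusted p = 0.171). Mx2, a dynamin-like GTPase, was at 2.03, 6.31, 3.10 and 7.34 CPM in iSCs and at 2.24, 0, 0.0859 and 0 CPM in bSCs (edgeR adjusted p = 0.278). Both Rsad2 and Mx2 are near the limit of detection in bSCs. Oas3 was at 1.17, 0, 0.0757 and 57.0 CPM in iSCs and at 0, 0, 7.13 and 0 CPM in bSCs. Oasl1 was at 0, 2.65, 5.83 and 40.6 CPM in iSCs and at 0, 8.12, 0 and 0 CPM in bSCs. The oligoadenylate synthetase median of -2.59 takes in Oas3, Oasl1 and Oas2, and fitted fold changes of genes so near 0 depend on the prior count.

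Among the RNA sensors, Ddx58 (RIG-I) was at 21.8, 19.2, 27.6 and 35.6 CPM in iSCs and at 31.7, 40.7, 16.2 and 5.41 CPM in bSCs (log2 fold change -0.15 ± 0.57 SE, edgeR adjusted p = 0.905). Ifih1 (MDA5) ranged more widely, over 34.1, 32.7, 16.7 and 95.6 CPM in iSCs and 0, 38.1, 6.36 and 28.5 CPM in bSCs (-1.29 ± 1.12, edgeR adjusted p = 0.513). Of the other effectors, Eif2ak2 encodes PKR, the kinase that halts translation on binding double-stranded RNA, and had a log2 fold change of 0.33 ± 0.66 (edgeR adjusted p = 0.810). Gbp2, a guanylate-binding protein induced by interferon gamma, was at 120, 135, 59.0 and 95.7 CPM in iSCs and at 75.2, 48.8, 71.7 and 48.2 CPM in bSCs (-0.75 ± 0.42, edgeR adjusted p = 0.270). None of these 4 genes separated the groups.

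The third comparison set bSCs against dSCs, both 6 days after the cut. Of the 35 genes 1 was called lower, Oas2, and 0 higher, beside 5.43% of all genes called (2.31% higher and 3.11% lower). At an unadjusted p under 0.05 there were 3 (8.57%), beside 21.5% of all genes, and DESeq2 called 1, beside 14.1% of all genes. The median log2 fold change was -0.59, against -0.07 over all genes, and 28 of 35 lay below 0. Macrophage markers were below 0 for 14 of 15 genes, with a median of -1.22. Fibroblast markers were below 0 for 7 of 7, with a median of -2.88 and 3 called lower (summed level 16620-26280 CPM in dSCs), and endothelial markers were above 0 for 6 of 7, with a median of 0.88 and 1 called higher. The part of any of these cells in the result was not tested.

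For Oas2, every dSC library (20.5-36.6 CPM) lay above every bSC library (0-0.0859 CPM). The edgeR adjusted p was 0.0233. Summed counts per depth were 1775 times as high in dSCs as in bSCs (95% exact interval 318-70150, 1487 counts against 1). This interval too holds counting error only and no spread between pools. The call was lost without bSC replicate 2, 3 or 5 and without dSC replicate 1 or 5 (adjusted p from 0.0507 to 0.0634). In the single-nerve libraries Oas2 showed no such separation, since at day 6 bSCs held 0, 41.9 and 0 CPM and dSCs 23.5, 42.4 and 0 CPM. These 3 pooled comparisons share libraries in pairs and are not independent of each other.

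**Figure D4:**
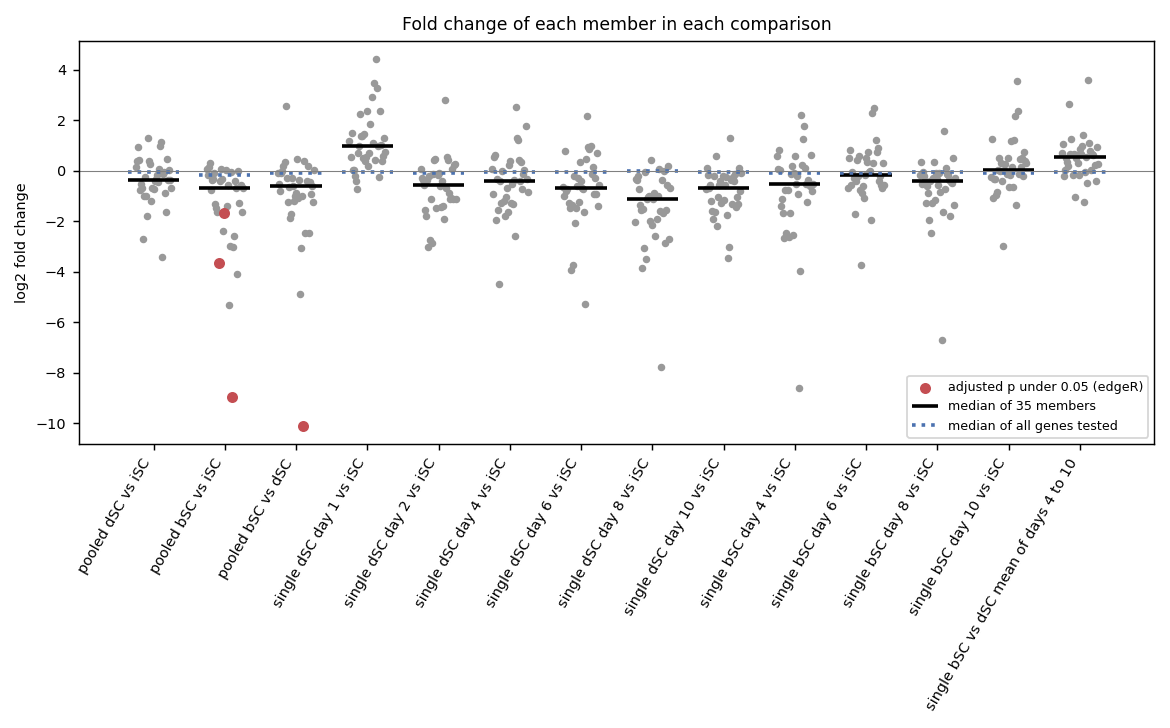
Log2 fold change of each of the 35 genes (points) in the 3 pooled and 11 single-nerve comparisons, with called genes in red, the median of the 35 as a black line and the median of all genes tested as a blue dotted line. Calls appear only in pooled bSCs against iSCs (3) and pooled bSCs against dSCs (1), and the median lies above 0 at single-nerve dSC day 1 (0.98).

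The single-nerve time course asked when after transection the genes differed from the intact nerve. None of the 35 was called by edgeR in any of the 12 comparisons. Against iSCs, dSCs had 4, 2, 5, 3, 10 and 1 of the 35 at an unadjusted p under 0.05 at the successive time points from day 1 to day 10, beside 6.75%, 9.1%, 16.6%, 12.5%, 8.66% and 8.56% of all genes. The 10 on day 8 were 28.6% of the 35. DESeq2 called 1, 1, 3, 1, 2 and 1 of the 35, and 2.15%, 3.1%, 9.48%, 5.55%, 2.56% and 2.87% of all genes. Of all 15519 genes tested, edgeR called 0.18%, 0.445%, 1.73%, 0.554%, 0.303% and 0.354% in the same order. For bSCs the numbers at an unadjusted p under 0.05 were 4, 3, 2 and 2 on days 4, 6, 8 and 10, beside 15%, 16.7%, 9.96% and 15.6% of all genes. DESeq2 called 3, 2, 0 and 1 of the 35 and 8.29%, 9.22%, 3.65% and 8.73% of all genes, and edgeR called 1.57%, 1.33%, 0.303% and 1.3% of all genes. With so few calls over all genes, 0 of 35 says little about these genes in particular. All 10 comparisons share the 5 iSC libraries. Endothelial markers had a fold change below 0 for 7 of 7 genes in dSCs at every time point. In bSCs they were below 0 for 7, 6, 3 and 6 of 7 genes on days 4, 6, 8 and 10. Macrophage markers were above 0 for 15 of 15 genes in all 10 comparisons. The part of these cells was not tested.

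The median log2 fold change in dSCs was 0.98 on day 1, with 31 of 35 above 0. Without dSC day 1 replicate 2 it was -0.41, with 24 of 35 below 0. The later medians were -0.56, -0.38, -0.66, -1.13 and -0.68 on days 2, 4, 6, 8 and 10. On day 8, 32 of 35 lay below 0, and without iSC replicate 3 the median was -0.56. Without that iSC library the day 2, 4, 6 and 10 medians were -0.05, 0.18, -0.27 and -0.08. For bSCs the medians were -0.52, -0.18, -0.40 and 0.04 on days 4, 6, 8 and 10, and -0.01, 0.65, 0.11 and 0.48 without iSC replicate 3. Day 10 without bSC replicate 3 gave -0.84. With the near-identical pair left out, day 4 gave -0.03 in dSCs and -0.49 in bSCs. Most of the medians therefore moved with 1 or 2 libraries.

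Ifit3 was at 46.4-413 CPM in the 5 iSC libraries (median 73.0). In dSCs it overlapped with iSCs on day 1 and on day 4 (63.5, 12.1 and 102 CPM). It was at 0.964, 39.9 and 14.5 CPM in dSCs on day 2, at 22.2, 37.8 and 36.8 CPM on day 6, at 3.19, 25.6 and 6.62 CPM on day 8 and at 35.4, 12.3 and 42.1 CPM on day 10. On days 2, 6, 8 and 10 every dSC library lay below every iSC library. The log2 fold change was -3.51 ± 1.16 SE on day 8 (edgeR adjusted p = 0.284, and called by DESeq2). In bSCs Ifit3 was at 27.2, 8.40 and 30.2 CPM on day 4 and at 24.9, 37.7 and 10.3 CPM on day 8, again all below iSCs. On day 6, the time of the pooled collection, bSCs held 189, 32.5 and 22.1 CPM and overlapped with iSCs (log2 fold change -0.74 ± 1.01 SE, edgeR adjusted p = 0.773), and on day 10, where replicate 3 reached 200 CPM, they overlapped too.

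Irf1 did not separate in the single-nerve libraries. It was at 12.02-108 CPM in iSCs, and its log2 fold changes lay between -0.21 and 0.54 over all 10 comparisons with iSCs. On day 6 bSCs held 47.2, 70.8 and 49.4 CPM (-0.18 ± 0.49 SE, edgeR adjusted p = 0.906). The difference between the pooled and the single-nerve values was not tested.

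Irf7 was at 2.79, 19.9, 197, 23.1 and 26.2 CPM in iSCs, the third value being that of replicate 3. On day 1 the log2 fold change in dSCs was 2.36 ± 1.09 SE (edgeR adjusted p = 0.711), with replicate 2 at 744 CPM. The other time points gave values from -2.13 to 0.60, all with overlapping libraries. Stat2 and Irf9 overlapped with iSCs at every time point, with log2 fold changes from -1.31 to 0.38 and from -1.26 to 0.35.

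Ifitm3 was at 145, 906, 148, 482 and 811 CPM in iSCs and at 1044, 1332 and 1717 CPM in dSCs on day 1. The day 1 libraries all lay above the iSC libraries, by a log2 fold change of 1.45 ± 0.66 SE that did not pass the test (edgeR adjusted p = 0.706). From day 2 on, dSC and bSC libraries overlapped with iSCs. Ifitm2 overlapped at every time point.

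**Figure D5:**
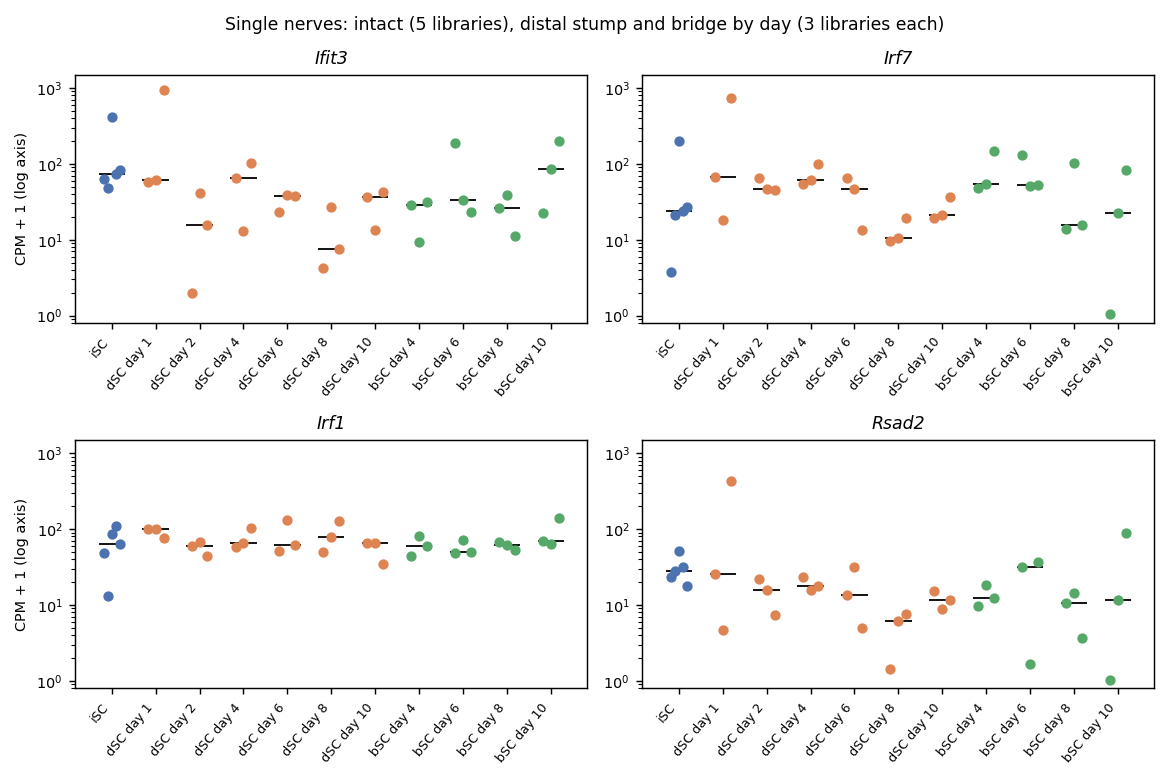
CPM + 1 (log axis) of Ifit3, Irf7, Irf1 and Rsad2 in each single-nerve library by day after transection, for iSCs, dSCs and bSCs. The highest points of Ifit3 (938 CPM) and Irf7 (744 CPM) belong to 1 dSC library on day 1, and Irf1 overlaps with iSCs on every day.

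Some genes outside the naming rule were picked after their values were seen, because they recurred at an unadjusted p under 0.05. Ifi35, a leucine zipper protein that associates with Nmi, was at 202, 251, 71.8, 94.0 and 77.9 CPM in iSCs and at 36.5-63.0 CPM in dSCs on days 4 to 10. Its log2 fold change was -1.59 ± 0.53 SE in dSCs on day 10 (edgeR adjusted p = 0.306) and -1.65 ± 0.53 in bSCs on day 4 (edgeR adjusted p = 0.116). DESeq2 called it lower in dSCs on days 4, 6 and 10 and in bSCs on days 4 and 6. In pooled bSCs against iSCs its value was -0.34 ± 0.45 (edgeR adjusted p = 0.706).

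Oas1a, an oligoadenylate synthetase, went the other way. It was at 10.5, 0, 16.4, 4.84 and 7.09 CPM in iSCs, at 32.2, 86.0 and 142 CPM in dSCs on day 1 and at 51.9, 22.4 and 60.4 CPM on day 4. All of these day 1 and day 4 values lay above iSCs. The log2 fold change was 3.47 ± 0.94 SE on day 1 and 2.52 ± 0.92 on day 4 (edgeR adjusted p = 0.197 and 0.157), and DESeq2 called it on days 1, 2 and 4. Macrophage markers had a fold change above 0 for 15 of 15 genes in each of these comparisons, and their part was not tested. In pooled dSCs against iSCs Oas1a was at 0.97 ± 1.23 (edgeR adjusted p = 0.825).

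Between bSCs and dSCs of single nerves, taken as the mean of days 4 to 10, 0 of 35 were called, beside 0.103% of all genes called. At an unadjusted p under 0.05 there were 5 (14.3%), beside 9.01% of all genes, and DESeq2 called 1 (Oas3), beside 3.73% of all genes. The median log2 fold change was 0.53, with 27 of 35 above 0, and 0.50 with the near-identical pair left out. With each library left out in turn, it ran from 0.305 to 0.598. With the animal as a block, over 10 pairs, it was 0.62, with 11 at an unadjusted p under 0.05 and 0 called. The share of all genes at that p is not given for the blocked fit, so the 11 have no baseline. The blocked fit kept the near-identical day 4 pair. In the pooled comparison of the same regions the median was -0.59, and the difference between the experiments was not tested. For the change of this difference across days, 0 of 35 genes and 0% of all genes were called, with 0 of 35 at an unadjusted p under 0.05 (3.14% of all genes) and 0 called by DESeq2 (0.0387% of all genes).

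The rest of the pathway was examined from fixed lists. Of 10 interferon genes in the files, 8 (Ifnb1, Ifne, Ifna1, Ifna2, Ifna4, Ifna5, Ifnl2 and Ifnl3) had 0 counts in all 47 libraries, which in a single library allows up to 0.133-0.325 CPM (3 counts, counting error only, without TMM scaling). Ifng had 3 counts, all in 1 dSC library on day 8, and Ifnk had 149 counts over 10 libraries. None passed the filter on low counts.

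Of 9 receptor and kinase genes, 1 rose in pooled dSCs against iSCs, the kinase Jak1 (log2 fold change 0.88, edgeR adjusted p = 0.0463), and 1 rose in pooled bSCs against iSCs, the interferon gamma receptor chain Ifngr2 (1.04, edgeR adjusted p = 0.0123). Ifnar1 and Ifnar2 were not called in either. Of 13 tested genes that act in the induction of interferon, Tmem173, which encodes the cyclic dinucleotide sensor STING, rose in both dSCs (1.65, edgeR adjusted p = 0.0285) and bSCs (1.92, edgeR adjusted p = 0.00587), and the other 12 were not called. Of 8 negative regulators 1 fell in dSCs, the cytokine signalling inhibitor Socs3 (-1.95, edgeR adjusted p = 0.0392), and 0 were called in bSCs. Over all genes, edgeR called 5.32% in pooled dSCs against iSCs and 14.7% in pooled bSCs against iSCs. Single calls in lists of this size therefore say little about the lists. The same lists held 0 called genes in bSCs against dSCs (5.43% of all genes) and in the single-nerve comparisons (at most 1.73% of all genes). Macrophage marker sums were higher in dSCs and bSCs than in 3 of the 4 iSC libraries, and their part in these 4 genes was not tested.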

How the data were processed

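RNA of sorted tdTomato-positive SCs was sequenced from Smart-seq2 libraries, which carry no molecular identifiers. The deposited values are raw read counts per gene. Per the labels and the submitters' processing notes, the authors aligned with TopHat2 2.0.11 to mm9 and counted with HTSeq. HTSeq categories that name no gene held 57.8-64.9% (pooled) and 55.7-63.6% (single-nerve) of reads and were left out with 92 ERCC spike-ins. Rat libraries were not analysed here, and some genes of the lists are not reported here by name.

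Lanes of a library were summed. Counts were fitted per experiment in edgeR 4.0.16 (R 4.3.3, limma 3.58.1) with TMM scaling, filterByExpr and glmQLFTest, after the code was tested on simulated data, and Benjamini-Hochberg adjusted over all 13751 or 15519 genes. Alternatives were DESeq2 1.42.0, its size factors, no filter, the minimum of the study (100 counts in 85% of libraries), only the groups compared, lanes as a covariate, each library left out, and the replicate block. Replicates are separate pools or animals by the labels.

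The labels give same-numbered pools, and 11 pairs of single-nerve libraries, a shared animal identifier. One day 10 bSC library has a title that conflicts with its source name and animal, so its pair was left out of the pairing check, the block and the comparison of pairs, which leaves 10. Correlations of their deviations from the group means averaged -0.0039 over 10 pooled pairs (-0.16 to 0.12) and 0.16 over the single-nerve pairs (-0.13 to 0.68). The single-nerve pairs include the near-identical day 4 pair, and no average is given without it. The study's methods name no block, and blocked values are given where they change a call. Named genes were those called, filled to 6 by the smallest pooled p, the transcription factors and the 2 with the highest mean CPM. The members and lists were chosen with earlier results of these data known.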

Additional observations from a re-analysis of the deposited data

Results flagged for a closer look

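Of 48 sets of values searched in groups of 4 or 5 libraries, 6 held a library far from the others by Dixon's criterion, where chance alone gives about 1 in 20. In pooled iSCs, replicate 5 had a median log2(CPM + 1) over the 35 genes of 6.56, where the others had 4.60-4.84. In pooled dSCs, replicate 1 was low for 3 genes. It held 415 CPM of Ifitm3 (others 803-866), 16.1 CPM of Irf9 (others 43.8-53.0) and 11.7 CPM of Stat2 (others 46.5-57.2). In pooled bSCs, Oas2 was at 0.0859 CPM in replicate 3 and at 0 in the others, a difference of 1 count. In single-nerve iSCs, Ifit3 was at 413 CPM in replicate 3 and at 46.4-81.7 in the others.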

How the results depend on the processing

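Ifit3 and Irf1 kept their direction and their call in pooled bSCs against iSCs under every alternative run. Apart from leaving libraries out, the medians of the 35 genes were recomputed only with DESeq2 size factors and the replicate block. Of these medians 1 turned its sign, the day 10 bSC median (-0.23 with DESeq2 size factors). Medians under the other filters or DESeq2 itself are not given, and genes not called were not followed through every alternative. DESeq2 called 5 of the 35 genes in pooled bSCs against iSCs (Ifit2, Ifit3, Igtp, Irf1 and Oas2) where edgeR called 3, and 22.6% of all genes where edgeR called 14.7%. In single nerves, where edgeR called 0, DESeq2 called 1 in dSCs on days 1, 2, 6 and 10, 3 on day 4 and 2 on day 8, 3, 2 and 1 in bSCs on days 4, 6 and 10, and 1 in bSCs against dSCs, and the cause was not tested. With each library left out in turn, the number called was 2-4 in pooled bSCs against iSCs, 0-2 in bSCs against dSCs, 0-1 in dSCs against iSCs and 0 in every single-nerve comparison. The extremes of the median in these 3 pooled comparisons were -0.98 and -0.39, -0.83 and -0.47, and -0.56 and 0.59. With the replicate block by pool number, the counts called were 3, 1 and 0 in the same order, Oas2 in bSCs against iSCs lost its call (adjusted p = 0.0622), Igtp gained one, and no other call of the named genes changed. DESeq2 size factors shifted the all-gene median by -0.21 on day 10 in bSCs, where 20 rather than 16 of the 35 genes then lay below 0. The minimum of the study left 24 of the 35 genes. Leaving out the near-identical day 4 pair and the fit of 20 paired libraries without the animal block (median 0.68) were chosen after seeing the data. The low counts of Oas2, Oas3 and Mx1, 3-5 libraries per group and the macrophage markers that move with injury limit what these libraries can show.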
